A study of Caenorhabditis elegans with 2 samples.

Results

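The 10 genes described here encode core proteins of the germ line of the nematode Caenorhabditis elegans: the P granule helicases glh-1, glh-2 and glh-4, the P granule scaffold proteins pgl-1 and pgl-3, and the maternal zinc finger proteins mex-1, mex-5, mex-6, pie-1 and pos-1. They were taken by symbol from the Ensembl annotation of WBcel235, where all 10 were found among 19973 protein-coding genes of the 6 chromosomes. Their promoters were examined for binding of the product of Y67H2A.10, a protein annotated with a C2H2-type zinc finger domain. An anti-GFP antibody was used for ChIP-seq (chromatin immunoprecipitation followed by sequencing) on whole young adults, aged 63 hours, grown from starved L1 larvae. The strain, RW12295, carries Y67H2A.10::TY1::EGFP::3xFLAG, made by CRISPR insertion at the gene itself on chromosome IV. There are 2 biological replicates of this 1 strain and no second condition, and no untagged strain was analysed here.

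P granules are condensates of RNA and protein that lie at the nuclear envelope of germ cells and are passed to the germline founder cells of the embryo. GLH proteins are DEAD-box RNA helicases related to Vasa, and PGL proteins bind each other to form the granule's scaffold. The CCCH zinc finger proteins bind RNA: they are made from maternal messages and sort the early embryo into germ line and soma. The chromatin came from whole animals, so a region can come from any tissue.

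The promoter window of a gene ran from 500 bp before to 100 bp past each 5′ end of its transcripts, and a region was placed there by its summit. Regions kept in a thresholded list passed an irreproducible discovery rate (IDR) of 0.01, where the IDR estimates how many of the peaks ranked at least as high fail to repeat in the other list compared. The conservative list compared the 2 replicates with each other and held 666 regions. The other thresholded lists came from the pooled reads (645 regions), replicate 1 (324) and replicate 2 (413). Each has a longer ranked list of candidates, of which the one comparing the replicates held 18521 regions. The deposited signal is the authors' measure of peak height, used within a list only, and a percentile is the share of regions of the same ranked list with a signal at or below the one named. No read counts are given, so depth is unknown.

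Of the 10 genes, 2 carried a kept region in a promoter window of the conservative list, glh-2 and mex-1, against 2.31% of all protein-coding genes. Both summits lay on soft-masked bases, which mark repeats and simple sequence. With such summits left out, a choice made after seeing the data, none of the 10 was counted, against 1.84% of all protein-coding genes. Neither gene kept its window region in the list of replicate 2. That list held none of the 10 (a count that allows a share of up to 30.0%, counting error only), against 1.51% of all protein-coding genes. The list of replicate 1 held glh-2 and pos-1, against 1.22% of all protein-coding genes, and the pooled list held mex-1 and pos-1, against 2.30%. It follows that no member passed in all 4 lists, and the share of all protein-coding genes that did is not given here. With 10 hand-picked genes, these counts are a description and were not tested.

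**Figure D1:**
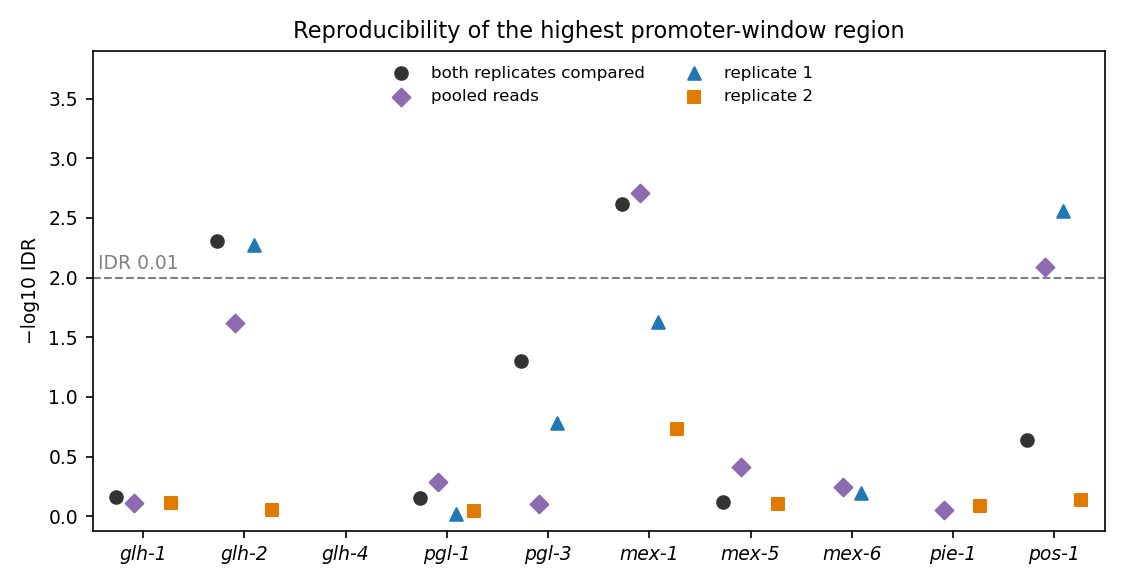
Reproducibility of the highest-signal region in the promoter window of each member, as −log10 IDR in the 4 ranked lists, where higher is more reproducible and a missing point means no region listed. Points above the dashed line passed an IDR of 0.01: glh-2 in 2 lists, mex-1 in 2 and pos-1 in 2, and in none of them replicate 2.

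The helicase gene glh-2 (WBGene00001599, chrI:6513928-6517507, plus strand) carried its region almost exactly at the annotated start. In the comparison of replicates the record was chrI:6513784-6514079, with the summit 4 bp downstream of the 5′ end, inside the 5′ UTR. Its signal of 107 stood at percentile 98.2 of the ranked list, and its IDR was 0.00490. In replicate 1 alone the signal was 56.7 (percentile 98.5, IDR 0.00539), with the summit 11 bp upstream. In replicate 2 alone it was 35.2 (percentile 95.4), with the summit 39 bp upstream and an IDR of 0.888. So both replicates listed a high-ranking region at this start, and only replicate 1 passed the threshold by itself. In the pooled reads the IDR was 0.0238, short of the threshold. The gene lies head-to-head with C55B7.11, annotated as an OSCP1 protein, with a gap of 97 bp between the genes. The summit was 102 bp upstream of the 5′ end of that gene, and it cannot be told apart which of the genes the region belongs to.

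The relatives of glh-2 had no kept region within 2 kb. For glh-1 (WBGene00001598, chrI:6854478-6857536), the founding member of the family, the region in the window lay in the 5′ UTR, 92 bp past the 5′ end, with a signal of 43.4 (percentile 61.4, IDR 0.688). Replicate 2 gave it a signal of 35.2 (percentile 95.4, IDR 0.770), and replicate 1 listed none in the window. Replicate 1 did list a record outside the window, 300 bp downstream in the 5′ UTR (percentile 45.6, IDR 0.847), within the span of the region of the comparison. A stronger record of the comparison lay on soft-masked bases within an intron, 1023 bp downstream of the 5′ end (signal 83.0, percentile 96.3). Its IDR of 0.0248 was the nearest to the threshold of any glh-1 region in the comparison of replicates. The intronic record stood at percentile 92.2 in replicate 1 and at percentile 96.0 in replicate 2. The third gene, glh-4 (WBGene00001601, chrI:3727027-3731179), had no ranked region in its window in any ranked list. Its nearest was 105 bp downstream of the 5′ end in replicate 1, just outside the window (percentile 55.8, IDR 0.962). The 3 helicase genes thus ran the whole range from a kept region to none listed.

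**Figure D2:**
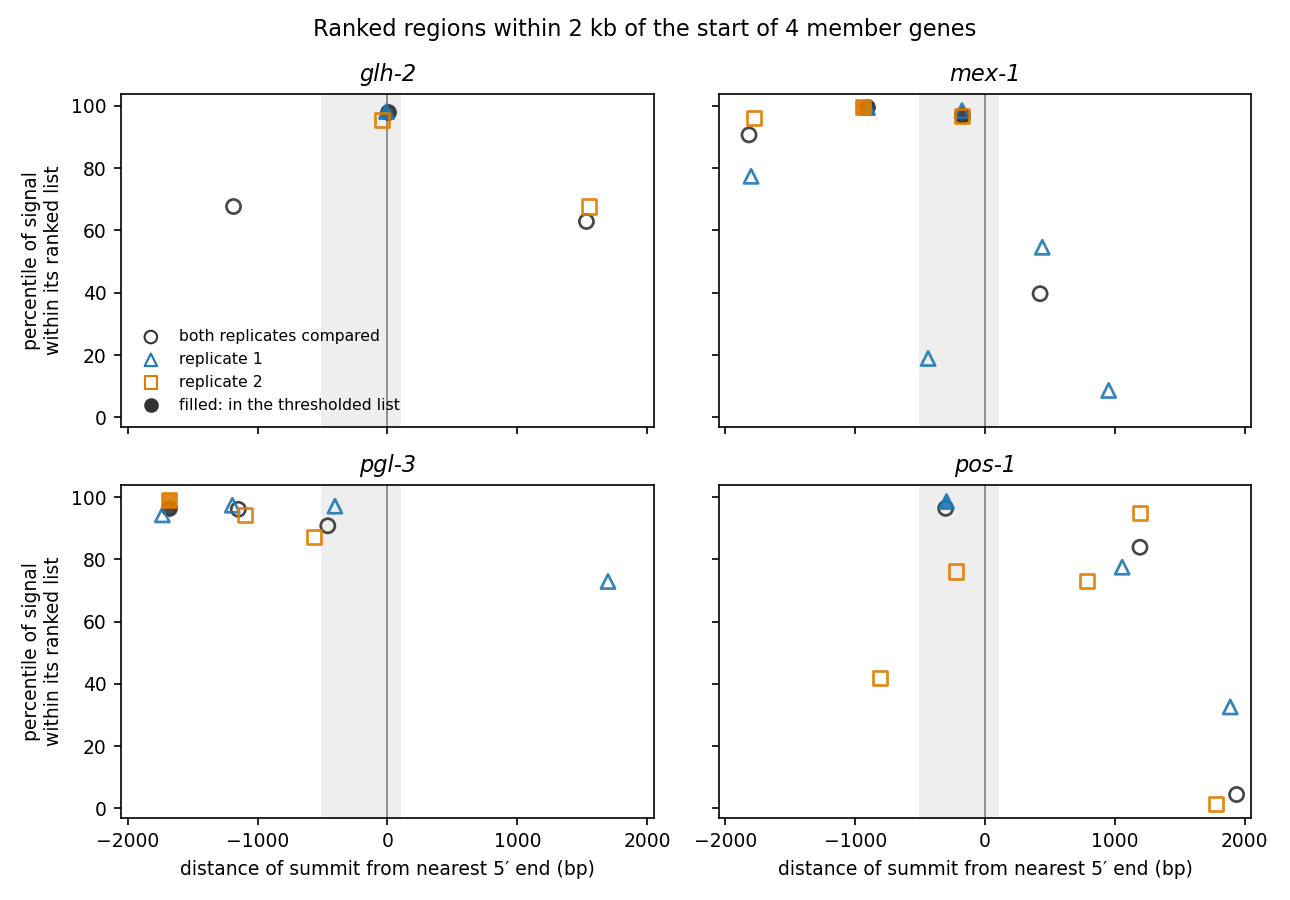
Ranked regions within 2 kb of the 5′ ends of glh-2, mex-1, pgl-3 and pos-1, plotted by the distance of the summit from the nearest annotated 5′ end of the gene (bp, negative upstream) and the percentile of the signal within its own ranked list. The grey band is the promoter window, and filled marks were kept in the matching thresholded list; the mex-1 region 909 bp upstream is filled in the comparison and in both replicates.

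The strongest region near any of the 10 genes was upstream of mex-1. MEX-1 is a CCCH protein needed for P granules and PIE-1 to segregate to the germline cells of the embryo. The gene (WBGene00003228, chrII:11968637-11972330, plus strand) had 2 kept regions in its upstream gap of 1092 bp. The farther one, chrII:11967580-11967875, had its summit 909 bp upstream of mex-1, with a signal of 236, percentile 99.7 and an IDR of 1.00e-05. Replicate 1 gave it a signal of 110 (percentile 99.7, IDR 5.43e-05), and replicate 2 a signal of 118 (percentile 99.8, IDR 1.42e-05). It was kept in all 4 thresholded lists, the only place within 2 kb of the 10 genes that was. It lies outside the promoter window of mex-1 and 184 bp upstream of W03C9.5, the head-to-head neighbour, to which the nearest 5′ end assigns it.

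The nearer region, chrII:11968314-11968609, had its summit 175 bp upstream of the 5′ end of mex-1 and no other 5′ end within 500 bp. Its signal in the comparison of replicates was 92.5 (percentile 97.2, IDR 0.00239). In replicate 1 the signal was 56.2 (percentile 98.5, IDR 0.0232) and in replicate 2 it was 39.3 (percentile 96.9, IDR 0.187). Summits fell within 2 bp of each other, at 177 and 176 bp upstream in replicates 1 and 2. It ranked high in both replicates and passed only when they were combined. The 2 mex-1 regions are shown as the 101 bases centred on each summit, on the plus strand of WBcel235 from RefSeq, with capitals marking CGCGC or its complement GCGCG. Both carried that word, which is the letters shared by ACGCGC and GCGCGC, words that earlier results on these regions had brought up.
mex-1, 909 bp upstream (chrII:11967678-11967778): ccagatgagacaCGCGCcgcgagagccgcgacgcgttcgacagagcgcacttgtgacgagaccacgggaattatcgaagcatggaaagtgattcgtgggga
mex-1, 175 bp upstream (chrII:11968412-11968512): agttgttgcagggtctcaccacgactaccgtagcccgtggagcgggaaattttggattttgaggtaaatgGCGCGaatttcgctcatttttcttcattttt

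For pos-1 (WBGene00004078, chrV:8414086-8415254), whose CCCH protein controls translation of maternal messages in the embryo's posterior, the replicates differed. The region chrV:8413635-8413930 had its summit 303 bp upstream of pos-1 and 301 bp upstream of vha-18, a gene annotated as a V-type ATPase subunit on the other side of a gap of 603 bp. Replicate 1 gave a signal of 60.8 (percentile 98.8, IDR 0.00274), with the summit at the same base. Replicate 2 gave a signal of 24.4 (percentile 76.1, IDR 0.726), with the summit 222 bp upstream. The comparison of replicates gave the region an IDR of 0.228 and the pooled reads gave it 0.00807. Its signal was 84.0 in both lists (percentile 96.4 in the comparison). It was kept for replicate 1 and the pooled reads, and not for replicate 2 or the comparison. In replicate 2 the highest record near pos-1 was past the other end of the gene, 1191 bp downstream of the start (signal 34.2, percentile 94.8, IDR 0.0817). The comparison also listed that place (percentile 83.9, IDR 0.161), and replicate 1 listed an overlapping record (percentile 77.5, IDR 0.748). The bases around the upstream summit, shown as a place that 1 replicate supports, held no CGCGC.
pos-1, 303 bp upstream (chrV:8413733-8413833): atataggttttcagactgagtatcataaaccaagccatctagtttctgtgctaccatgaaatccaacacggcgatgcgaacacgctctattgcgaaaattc

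The other CCCH genes had candidates short of the threshold. MEX-5 and MEX-6 are close relatives that act together in the anterior of the embryo to set up its asymmetry. For mex-5 (WBGene00003230, chrIV:13353723-13356104), a region 266 bp upstream had a signal of 49.2 (percentile 76.6, IDR 0.765). Replicate 2 listed it at the same base (percentile 91.6, IDR 0.782), and replicate 1 listed none in the window. The summit was 264 bp upstream of rec-8, a meiotic cohesin gene on the other strand. For mex-6 (WBGene00003231, chrII:9524174-9526359), replicate 1 listed a window region 384 bp upstream (signal 41.0, percentile 96.2, IDR 0.635), and replicate 2 listed none. The pooled reads listed it 383 bp upstream (signal 52.2, percentile 83.1, IDR 0.568). In the comparison of replicates its nearest record lay within the coding sequence, 227 bp downstream of the 5′ end (percentile 89.4, IDR 0.751). So the paired genes each had a window candidate in 1 replicate, and in different ones.

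For pie-1 (WBGene00004027, chrIII:12426893-12429195), whose product represses transcription in the germline cells of the embryo, replicate 2 listed a window region and replicate 1 did not. It lay 156 bp upstream, with a signal of 27.1 (percentile 85.1, IDR 0.813). The pooled reads listed it 151 bp upstream (signal 38.2, percentile 44.7, IDR 0.882). The highest record near pie-1 in the comparison of replicates was in its 3′ UTR (signal 63.7, percentile 92.1, IDR 0.137). That record was 387 bp downstream of the second annotated 5′ end of the gene, which lies inside it. At this place replicate 2 listed a record (signal 34.7, percentile 95.1, IDR 0.282), and replicate 1 listed none. The 2 replicates did not list the same places around this gene.

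The scaffold gene pgl-3 (WBGene00003994, chrV:4755979-4758587) had kept regions nearby that belong by position to its upstream neighbour. PGL-3, like PGL-1, is a constitutive component of P granules with RNA-binding repeats at its end. The region chrV:4754150-4754445 lay 1681 bp upstream of pgl-3 and 15 bp upstream of hil-4, a linker histone H1 gene on the same strand. Its signal was 85.1 (percentile 96.5, IDR 0.00484). Replicate 2 kept it, with a signal of 57.9 (percentile 99.0, IDR 0.00234), and replicate 1 did not, with a signal of 37.0 (percentile 94.3, IDR 0.472). A second, 1148 bp upstream within the coding sequence of hil-4, was kept in the pooled list only (signal 81.2, IDR 0.0116 in the comparison of replicates). By itself, then, replicate 2 kept the place by hil-4 and replicate 1 did not, whereas glh-2 and pos-1 were kept by replicate 1 and not by replicate 2.

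In the promoter window of pgl-3, the region chrV:4755372-4755874 had its summit 459 bp upstream, between the end of hil-4 and the start of pgl-3. Its signal of 61.5 stood at percentile 90.8, with an IDR of 0.0505. Replicate 1 listed it 404 bp upstream (signal 44.5, percentile 97.1, IDR 0.164). Replicate 2 had a summit 565 bp upstream (signal 28.1, percentile 87.3), just outside the window. Of the window regions that did not pass, this had the lowest IDR in the comparison of replicates, while the pooled reads gave it an IDR of 0.782. The place by hil-4 in the conservative list, cut where the hil-4 transcript begins, held the word CGCGC or its complement in several copies. The window place held none, nor did the place within hil-4 kept in the pooled list.
hil-4 side, 1681 bp upstream of pgl-3 (chrV:4754248-4754312): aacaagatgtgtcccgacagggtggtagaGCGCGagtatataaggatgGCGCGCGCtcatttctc
pgl-3, 459 bp upstream (chrV:4755470-4755570): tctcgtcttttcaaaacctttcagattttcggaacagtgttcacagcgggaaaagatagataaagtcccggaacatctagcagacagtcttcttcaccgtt

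The other scaffold gene, pgl-1 (WBGene00003992, chrIV:6974441-6977318, minus strand), had a record over its start in the ranked lists of both replicates, short of the threshold in each. Its signal was 49.1 in the comparison of replicates (percentile 76.2, IDR 0.697). In replicate 1 the signal was 20.0 (percentile 30.6, IDR 0.962) and in replicate 2 it was 23.5 (percentile 72.3, IDR 0.902), so the record stood lower in the list of replicate 1. The summit of the comparison was 255 bp upstream of him-3, a meiotic chromosome axis gene that lies head-to-head with pgl-1.

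**Figure D3:**
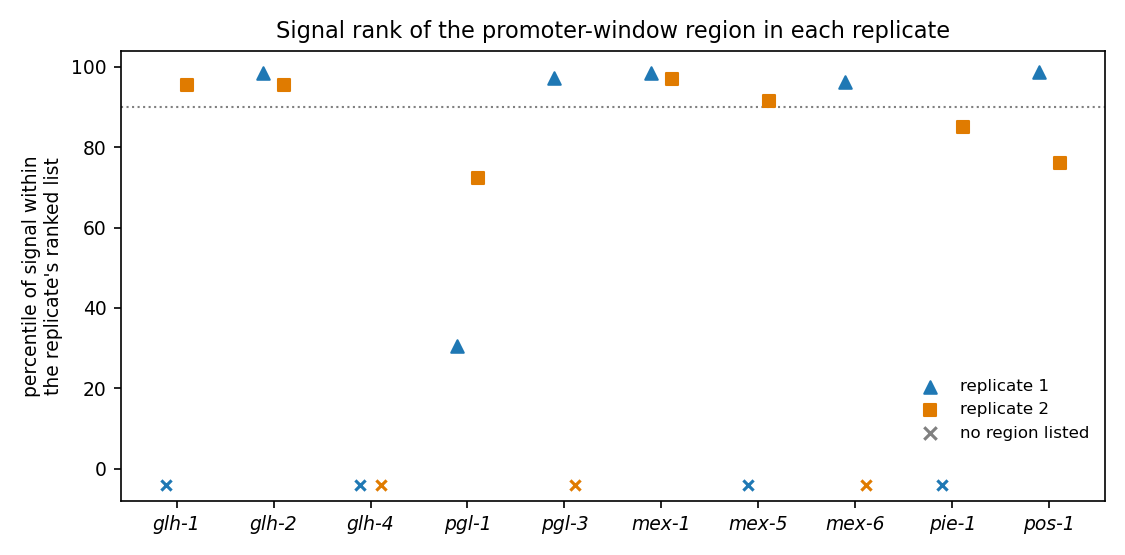
Percentile of the highest promoter-window region of each member within the ranked list of replicate 1 (triangles) and of replicate 2 (squares), with crosses where none was listed and a dotted line at percentile 90. Of the members, only glh-2 and mex-1 stood above the line in both replicates, and pos-1 stood at 98.8 in replicate 1 and at 76.1 in replicate 2. Outside the members, par-5, plk-1 and csr-1, not plotted, stood above it in both. At or above the line were 4.95% of all protein-coding genes in replicate 1 and 5.87% in replicate 2. The share in both is not given here.

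Ranked regions, kept or not, were listed for most of the genes. In the comparison of replicates 7 of the 10 had a ranked region in a promoter window (glh-1, glh-2, pgl-1, pgl-3, mex-1, mex-5 and pos-1), against 18.9% of all protein-coding genes. In replicate 1 there were 6, against 22.8% of all protein-coding genes, and in replicate 2 there were 7, against 27.8%. The pooled reads listed 9, all but glh-4, against 20.0% of all protein-coding genes. Both replicates listed glh-2, pgl-1, mex-1 and pos-1. The share of all protein-coding genes listed in both is not given here, so this overlap has no background to be read against. At percentile 90 or above stood 4 members in the comparison (glh-2, pgl-3, mex-1 and pos-1), against 4.57% of all protein-coding genes. The pooled reads put the same 4 there, against 4.80% of all protein-coding genes. Those were the same records with the same signals, so this is not a second, separate result. In replicate 1 there were 5 such members (glh-2, pgl-3, mex-1, mex-6 and pos-1), against 4.95% of all protein-coding genes, and in replicate 2 there were 4 (glh-1, glh-2, mex-1 and mex-5), against 5.87%. Within 2 kb of a 5′ end the conservative list held a summit for 3 of the 10 genes, glh-2, pgl-3 and mex-1, against 4.61% of all protein-coding genes.

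The other genes of the same processes were a list of 44: 20 further germ granule genes, 12 further maternal RNA regulators and 12 genes for polarity and turnover proteins that act on the zinc finger proteins. None of the 44 carried a region of the conservative list in a promoter window, against 2.31% of all protein-coding genes. For a random sample of 44, a count of 0 would allow a share of up to 6.82% (3 counts of 44, counting error only). The 44 were chosen and not sampled, and their count was not tested. The pooled list held 2, par-5, a 14-3-3 protein gene of polarity, and plk-1, the polo-like kinase gene, against its 2.30% of all protein-coding genes. Both were chosen for mention after seeing their values, as were csr-1 and par-2 here. In the comparison of replicates par-5 had a signal of 106 and an IDR of 0.0117, and plk-1 had a signal of 83.5 and an IDR of 0.0110, both just short of 0.01. The gene csr-1, which encodes an Argonaute of germ granules, had an IDR of 0.0126 there and 0.784 in the pooled reads. In the ranked lists of replicates 1 and 2, par-5 stood at percentiles 99.3 and 92.1, plk-1 at 98.3 and 93.3, and csr-1 at 93.4 and 97.5. No other gene of the 44 stood at percentile 90 or above in both. As candidates, 18 of the 44 had a ranked region in the comparison, against 18.9% of all protein-coding genes. They were 6 of the 20 germ granule genes, 6 of the 12 RNA regulators and 6 of the 12 polarity and turnover genes. The pooled reads listed 18 of the 44, against 20.0% of all protein-coding genes, and replicate 1 listed 18, against 22.8%. Replicate 2 listed 22, against 27.8%. With a window from 2000 bp upstream to 500 bp downstream, the conservative list held 1 of the 44, par-2, against 3.98% of all protein-coding genes. The par-2 region had a signal of 231, and its summit lay 658 bp upstream, inside the windows of kbp-4 and rab-18.

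**Figure D4:**
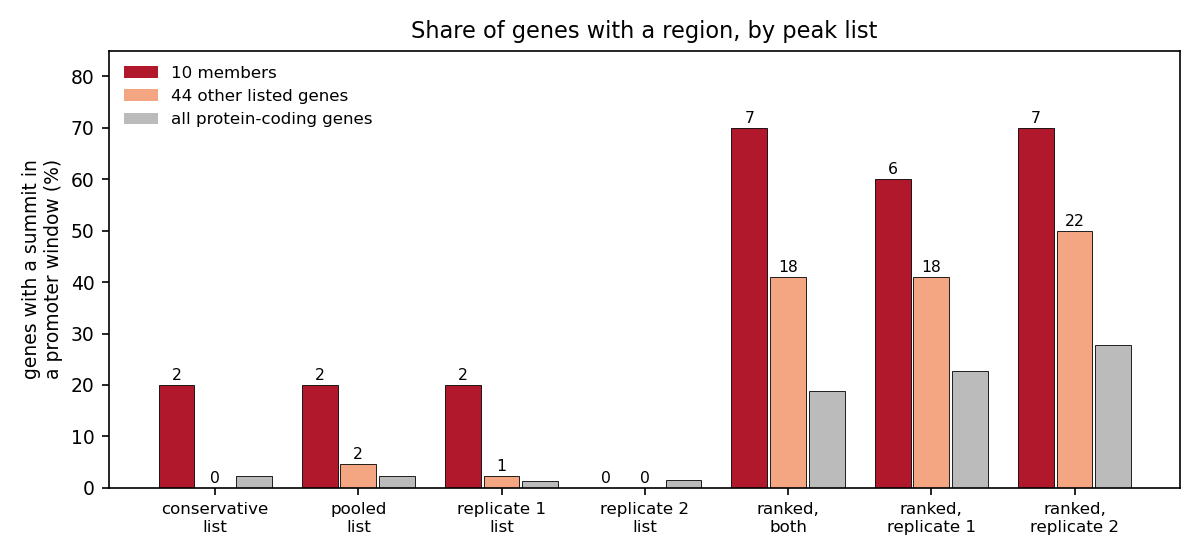
Share of genes with a summit in a promoter window in each of 4 thresholded and 3 ranked lists, for the 10 members, the 44 other listed genes and all protein-coding genes, with the number of genes above the bars of the first 2 groups. In the replicate 2 list no member and no listed gene had a region; in the ranked comparison 7 members and 18 listed genes had one.

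Among the 354 promoter regions of the conservative list, ordered by signal, glh-2 stood near the middle and mex-1 lower. The glh-2 region was at position 189, between a region of C45G9.11 and C45G9.2 (signal 108) and one of uvs-1 (signal 107). The nearer mex-1 region was at position 273, between imp-3 (signal 92.5) and rsbp-1 (signal 92.2). The farther one, counted for W03C9.5, was at position 32, between a region of hsp-90 and C47E8.4 (signal 236) and one of kbp-4 and rab-18 (signal 231). The region by hil-4 was at position 314, between famh-136 (signal 85.4) and twk-10 (signal 84.6).

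The kept places in the conservative list near the 10 genes all held the word CGCGC and varied in GC content. Within 50 bp of the summit GC content was 44.6% for glh-2, 45.5% and 59.4% for the nearer and farther mex-1 regions and 52.5% by hil-4. All regions of the conservative list averaged 49.0% ± 8.04 (SD, n = 666), and ranked regions short of the threshold 40.0%. The word CGCGC, on either strand, was in all of those 4 places. It was in 36.9% of the 666 regions, in 7.79% of 17822 ranked regions short of the threshold, and in 6.23% of 29773 windows of the same length centred 175 bp upstream of protein-coding 5′ ends. None of the 4 window summits of glh-1, pgl-1, pgl-3 and mex-5 short of the threshold in the comparison had it within 50 bp. Places kept only in other thresholded lists lacked it too: that of pos-1, and the one 1148 bp upstream of pgl-3, within hil-4. The word was chosen after the sequences had been seen. For glh-2 and the nearer mex-1 region, 68 and 64 of the 101 bases were soft-masked, against 0 at the farther mex-1 region and 0 by hil-4. The part of repeat sequence in the 2 window calls was not tested.

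In their setting on the chromosome, 7 of the 10 genes lay head-to-head with their upstream protein-coding neighbour, against 46.2% of all protein-coding genes with one. For glh-4 and pie-1 those neighbours were 5869 and 5174 bp away. In glh-2, pgl-1, mex-5 and pos-1, the summit of the comparison lay within 500 bp of the 5′ ends of both genes of the pair, so the window counts of these 4 members could not be given to 1 gene.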

How the data were processed

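Peaks of the 2 biological replicates were taken from 8 deposited lists on the ce11 build, which is the assembly WBcel235. Per the deposited text records, the lists derive from the alignments of 1 or both replicates. For the lists over both replicates, those records also name the alignments of a control. The thresholded lists derive from 1 further file whose content those records do not give. Neither aligner nor caller is given in the sources used here. The possible control experiment that the labels name was not itself analysed here. The columns used were the deposited score (the authors' rescaled IDR, at most 1000), the deposited signal (peak height, scale not given), and the deposited −log10 of the IDR of the ranked lists. The thresholded lists began at a score of 830 or 831, an IDR of 0.01. Of 743 ranked records at that IDR, 34 were not in the conservative list, none of them within 2 kb of a member. The position and value columns of the compared pair, 16 in all, stayed unused.

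Records that overlapped were joined to 1 region with the summit and signal of its highest record. Genes came from Ensembl release 115 and sequence from RefSeq. Python 3.11.15, numpy 2.4.6, pandas 2.3.3 and scipy 1.17.1 were used. The code that assigns summits was run on simulated data and recovered 200 of 200 planted genes. That checks the code only and does not bear on real summits shared by 2 genes. There is 1 group, so no test between groups was made, and p-values are absent. Members, gene lists and alternatives were chosen with earlier results of these data known. Named genes were all members, listed genes with a kept promoter region, genes with a 5′ end within 500 bp of a member's kept summit, and the promoter regions next above and below it in signal. Outside that rule, him-3, rec-8, par-5, plk-1, csr-1, mex-3 and par-2 were named after their values had been examined. Alternatives were other lists, thresholds, windows, 5′ ends and assignments.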

Additional observations from a re-analysis of the deposited data

How the results depend on the processing

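The 2 members with a kept promoter region, glh-2 and mex-1, remained so with 3 other definitions of the 5′ end or its assignment. The same 2 remained with any base of a record in the window, with unmerged records, and with the replicate comparison at an IDR of 0.05. They also remained with windows from 200 bp upstream to 50 bp downstream and from 1000 bp upstream to 100 bp downstream. Over those settings the share of all protein-coding genes ran from 1.12% (200 bp) to 3.09% (comparison at 0.05), with 3.01% for 1000 bp. With a window from 2000 bp upstream to 500 bp downstream, pgl-3 joined glh-2 and mex-1, against 3.98% of all protein-coding genes. With the pooled reads at an IDR of 0.05 pos-1 did, against 3.16%. In the pooled thresholded list the count was also 2, but for mex-1 and pos-1, against 2.30%. Leaving out a replicate gave 0 (replicate 2 alone, against 1.51%) to 2 (replicate 1 alone, glh-2 and pos-1, against 1.22%). At an IDR of 0.001 the count was 0 for the pooled reads (against 1.35%) and 0 for the replicate comparison (against 1.36%). It was also 0 without soft-masked summits, against 1.84%. Members with a ranked region in a window numbered 3 with the window from 200 bp upstream to 50 bp downstream, against 9.30% of all protein-coding genes. They numbered 9 with the one from 2000 bp upstream to 500 bp downstream, against 43.6%. The genes added there, mex-6 and pie-1, had summits of the comparison 227 and 387 bp downstream of a 5′ end. With the narrower window, glh-1, its summit 92 bp downstream, was among those lost. The pooled reads listed 9 in the window from 500 bp upstream, against 20.0% of all protein-coding genes. Elsewhere such members numbered 6 or 7, against 18.9% to 27.8%. The 44 listed genes had 0 in the conservative list, against 2.31% of all protein-coding genes. The pooled thresholded list (against 2.30%) and the pooled reads at an IDR of 0.05 (against 3.16%) each held 2 (par-5 and plk-1). The pooled reads at an IDR of 0.001 held 1 (par-5), against 1.35%. The replicate comparison at 0.05 held 4 (csr-1, mex-3, par-5 and plk-1), against 3.09%. Windows from 1000 and 2000 bp upstream held 1 each (par-2), against 3.01% and 3.98%. Leaving out a replicate gave 0 (replicate 2 alone, against 1.51%) to 1 (replicate 1 alone, against 1.22%). The unmerged records, the soft-masked summits and both thresholds on the replicate comparison were tried after seeing the data. The cause of these shifts was not tested. No paired analysis was possible because the labels give 1 group. With 2 replicates and no read counts, differences between them cannot be set against a sampling error.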
